A study of Homo sapiens with 6 samples.

Results

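The regions described here are the stretches of human chromosome 16 at which acetylated histone H4 (H4ac) was called in control H1975 cells, 1495 of the 36034 control peaks in the deposited tables. They were taken as the control-list peaks annotated to chromosome 16, the same regions in both tables, with positions in the hg19 build. The chromosome was selected on its measured read ratio, which was low in the shTIP60-B library against the control, so that ratio is given as a description and supports nothing by itself.

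H1975 is an established line of non-small cell lung cancer that carries a mutant EGFR. Its cells held hairpins that doxycycline switches on, either shControl or 1 of 2 hairpins against TIP60, named shTIP60-B and shTIP60-C, and the labels give 2 days of 0.5 ug/ml doxycycline for all samples, controls included. Chromatin was immunoprecipitated with an antibody to H4ac and sequenced, with 1 H4ac library and 1 input library per hairpin, 6 libraries in all. There was no replicate, so no difference between conditions could be tested. Every interval below covers the counting of reads only, and how far 2 cultures of the same hairpin would differ is not known. The level of TIP60 itself is not measured in these tables, and the input libraries were not analysed here.

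TIP60, also named KAT5, is the catalytic subunit of the NuA4 complex and places acetyl groups on histone H4 and H2A. H4 acetylation loosens the contact between a nucleosome and its neighbours, is read by bromodomain proteins, and marks active promoters and enhancers. Chromosome 16 is gene-rich, and its short arm holds blocks of recently duplicated sequence in which reads can map to more than 1 copy.

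Chromosome 16 control peaks had a median of 54 reads in shControl (range 14 to 784), 35 in shTIP60-B (0 to 567) and 99 in shTIP60-C (5 to 1517). Summed over the chromosome the reads were 147530, 88559 and 269955. That was 4.05% of the reads in all control peaks in shControl, 4.0% in shTIP60-C and 3.12% in shTIP60-B. The shTIP60-C library had the most reads in these peaks, so its ratios have the smaller counting error. Control reads were identical in both tables at all 36034 control peaks, so both comparisons share 1 control library and their values are given side by side only.

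Ratios are written on the log2 scale as relative ratios: summed knockdown over summed shControl reads, minus the same quantity over the 34539 control peaks on other chromosomes. A relative ratio of 0 is the level of the rest of the genome. With shTIP60-B the raw ratio was 0.600 on chromosome 16 and 0.789 elsewhere, a relative ratio of -0.39 (counting interval -0.41 to -0.38, at 95% as throughout), or 0.761 of the level elsewhere. With shTIP60-C the raw ratios were 1.83 and 1.86, a relative ratio of -0.02 (-0.03 to -0.01). Among the 22 other chromosomes with shTIP60-B, chromosome 20 alone lay lower, at -0.61, and the next, chromosome 1, stood at -0.21. With shTIP60-C chromosomes ran from -0.09 on chromosome 4 to 0.09 on chromosome 9.

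The ratio of shTIP60-B to shTIP60-C uses no control reads. Scaled in the same way, it was -0.37 (-0.39 to -0.36) on chromosome 16, -0.42 on the short arm and -0.34 on the long arm. It reuses the shTIP60-B reads on which the chromosome was selected, so it too is a description. Control peaks that were also in the knockdown peak list, called common by the authors, made up 61.2% of the chromosome with shTIP60-B against 68.9% elsewhere. For shTIP60-C they made up 80.5% and 79.9%.

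Both arms took part. Arms were split at the widest stretch without control peaks, 12.2 Mb between 34370036 and 46607422. With shTIP60-B the 710 short-arm regions had a relative ratio of -0.46 (-0.48 to -0.44) and the 785 long-arm regions -0.34 (-0.36 to -0.33). With shTIP60-C the arms stood at -0.04 and -0.01. The counting intervals of the arms do not overlap with shTIP60-B, and whether a second culture would show the same order is not known.

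Windows of 5 Mb were compared where they held at least 10 control peaks, which left 15. With shTIP60-B all 15 lay below 0, between -0.57 and -0.27, a range of 0.30. From the short-arm tip onward the values were -0.48, -0.35, -0.45, -0.36, -0.33, -0.51 and -0.57, the last from 30 to 35 Mb beside the centromeric gap. Along the long arm, with 60 to 65 Mb left out, they were -0.36, -0.44, -0.55, -0.33, -0.33, -0.39, -0.29 and -0.27. With summed reads the lowest windows thus lay at 25 to 35 Mb, the inner end of the short arm, and at 55 to 60 Mb. The highest lay at the outer end of the long arm. With medians of region ratios, set against the same reference, the order changed. The lowest were then 50 to 55 Mb (-0.64), 0 to 5 Mb (-0.60) and 25 to 30 Mb (-0.59), and the highest 20 to 25 Mb (-0.27). The windows at 30 to 35 and 55 to 60 Mb then both stood at -0.50. On this median scale other chromosomes lay below 0 too, at -0.06 for promoter and -0.09 for distal regions. By summed reads, 77 of 543 such windows outside chromosome 16 (14.2%) were at or below the highest chromosome 16 window. These included all 13 windows of chromosome 20.

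**Figure D1:**
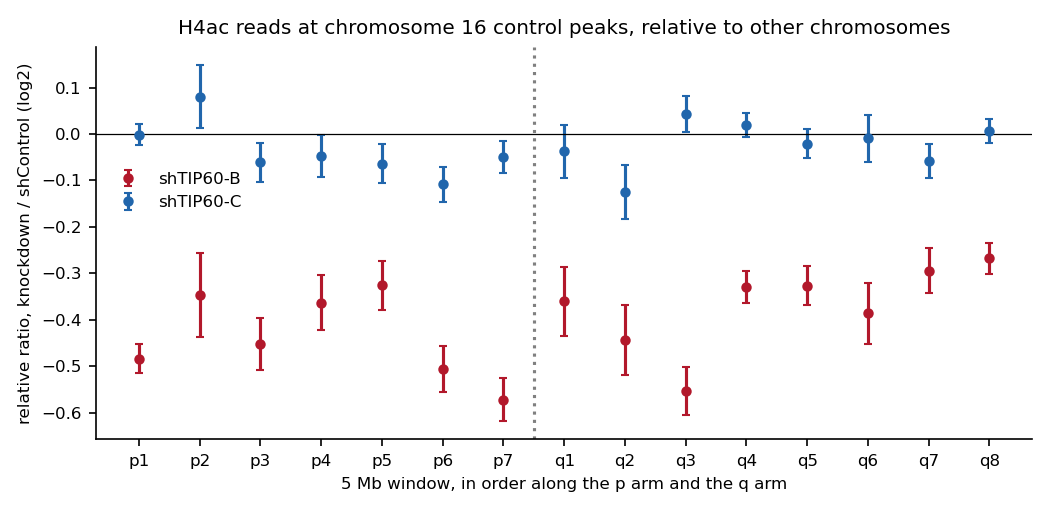
Relative ratio (log2, vertical axis) of H4ac reads in each 5 Mb window, numbered in order along the short (p) and long (q) arm, for shTIP60-B (red) and shTIP60-C (blue) over shControl. Points are summed reads and bars are 95% counting intervals; all shTIP60-B points lie between -0.57 and -0.27, while shTIP60-C points lie between -0.12 and 0.08.

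With shTIP60-C the 15 windows ran from -0.12 to 0.08 and 11 lay below 0. The lowest of them, from 50 to 55 Mb, held 6679 reads against 3926 in shControl, and the highest, from 5 to 10 Mb, held 5161 against 2631. The ratio of shTIP60-B to shTIP60-C was below 0 in all 15 windows, from -0.60 at 55 to 60 Mb to -0.24 at 80 to 85 Mb. Thin windows were left out of these counts. The window from 60 to 65 Mb held 1 region, with 32 reads in shControl, 4 in shTIP60-B and 34 in shTIP60-C, and the last 9 regions before the long-arm tip held 1927, 1231 and 3771 reads.

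The low level was found at every strength of region. Control peaks were split by their shControl reads, under 20, 20 to 49, 50 to 99, 100 up to 200, and 200 or more. With shTIP60-B chromosome 16 stood below other chromosomes in every class, with differences of -0.30, -0.41, -0.35, -0.37 and -0.42. With shTIP60-C the differences were 0.04, -0.01, -0.01, -0.003 and -0.04. These classes share the control reads that define them, so the comparison is made within a class only.

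**Figure D2:**
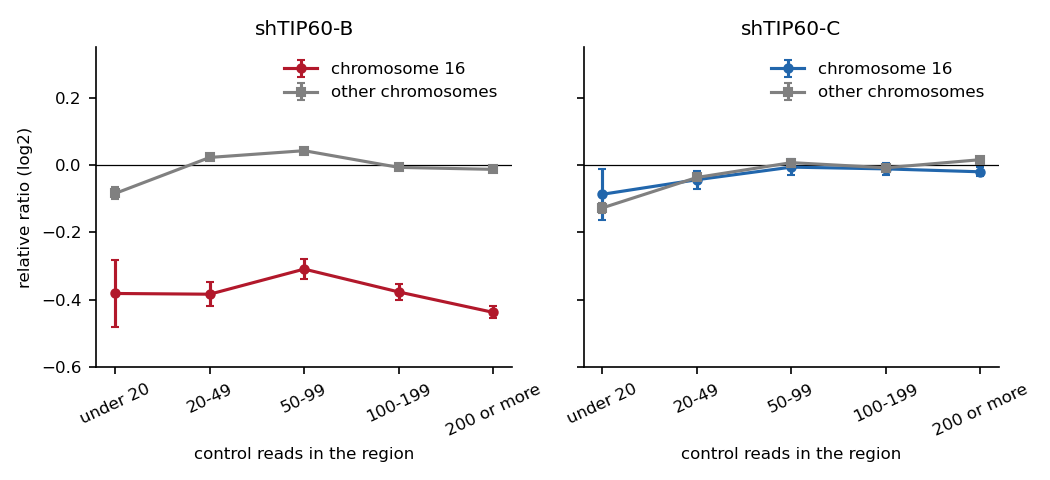
Relative ratio (log2, vertical axis) by class of shControl reads in the region (horizontal axis) for chromosome 16 (coloured) and all other chromosomes (grey), with 95% counting intervals. Chromosome 16 lies 0.30 to 0.42 below the other chromosomes in each class with shTIP60-B, and within 0.04 of them with shTIP60-C.

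Promoter regions, here those within 1000 bases of an annotated start site, made up 572 of the 1495 (38.3%, against 33.5% elsewhere). The other 923 are called distal. With shTIP60-B promoters held 47099 reads against 77126 in shControl, a relative ratio of -0.37, and distal regions 41460 against 70404, a relative ratio of -0.42. Promoters were thus 0.05 (0.03 to 0.08) above distal regions, whereas on other chromosomes they were 0.07 below (a difference of -0.07). The difference lay on the long arm, at 0.12 (0.09 to 0.16), and was -0.01 (-0.05 to 0.02) on the short arm. Within common peaks it was -0.02 (-0.05 to 0.01), an interval that includes 0. The opposite sign on other chromosomes holds for summed reads only. With medians of region ratios promoters stood above distal regions in both sets, by 0.10 on chromosome 16 and by 0.04 elsewhere.

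With shTIP60-C promoters stood 0.09 (0.07 to 0.11) above distal regions, 0.07 on the short arm and 0.11 on the long arm, against 0.002 on other chromosomes. With medians of region ratios the difference was 0.13 on chromosome 16 and 0.09 elsewhere. Within common peaks of chromosome 16 it was 0.06 with summed reads. Promoters lay above distal regions in 14 of 15 windows with shTIP60-C and in 9 of 15 with shTIP60-B. The widest gap with shTIP60-B was at 55 to 60 Mb, where 42 promoters stood at -0.31 and 63 distal regions at -0.78. The opposite order was seen at 45 to 50 Mb, where 13 promoters stood at -0.52 and 34 distal regions at -0.17.

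**Figure D3:**
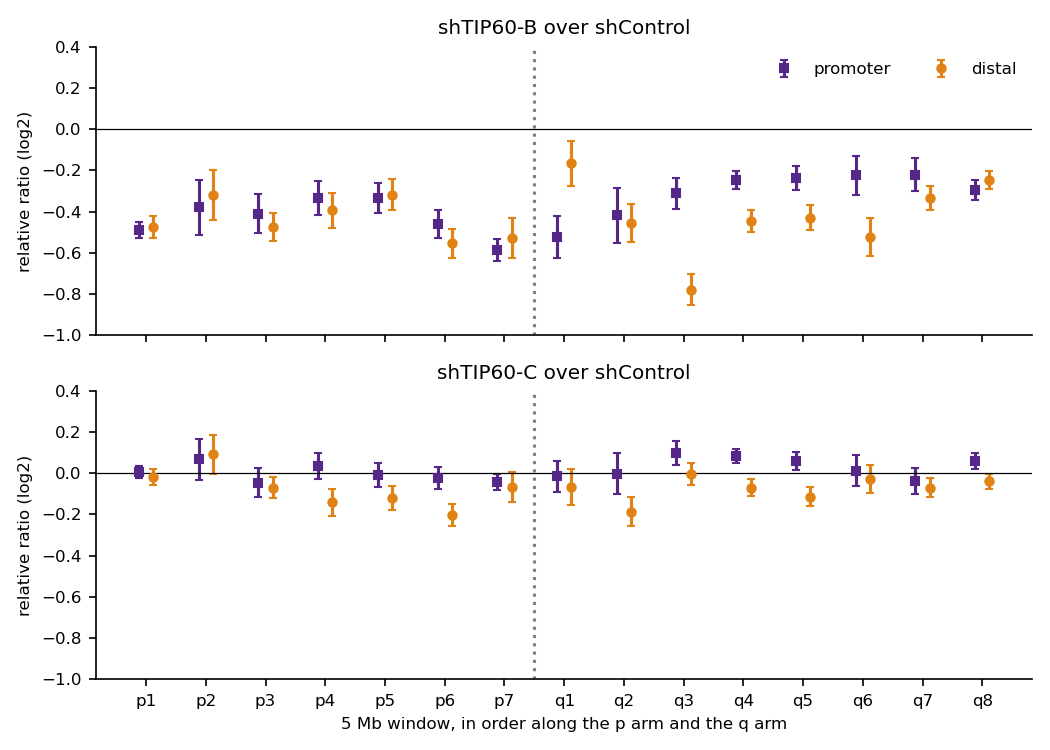
Relative ratio (log2, vertical axis) of promoter (squares) and distal (circles) regions in each 5 Mb window in order along the arms, with 95% counting intervals, for shTIP60-B (upper panel) and shTIP60-C (lower panel). Promoters lie above distal regions in 9 of 15 windows with shTIP60-B and 14 of 15 with shTIP60-C.

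Single regions were then set against their surroundings. The departure of a region is its log2 ratio, with a pseudocount of 0.5, minus the median of the other control peaks within 2.5 Mb, so the low level of the chromosome drops out. A region was called lower or higher when its departure was at least 1, a fold of 2, and the 99% counting interval of its ratio left out the local median. With shTIP60-B 80 of 1493 chromosome 16 regions were called lower, beside 5.27% of control peaks on all chromosomes, and 59 were called higher, beside 3.68%. The chromosome 16 shares were 5.36% and 3.95%. With shTIP60-C 27 were called lower, beside 2.36%, and 15 higher, beside 0.874%, which are shares of 1.81% and 1.00%. All of these shares lie near the background, so departures were about as frequent on chromosome 16 as elsewhere.

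**Figure D4:**
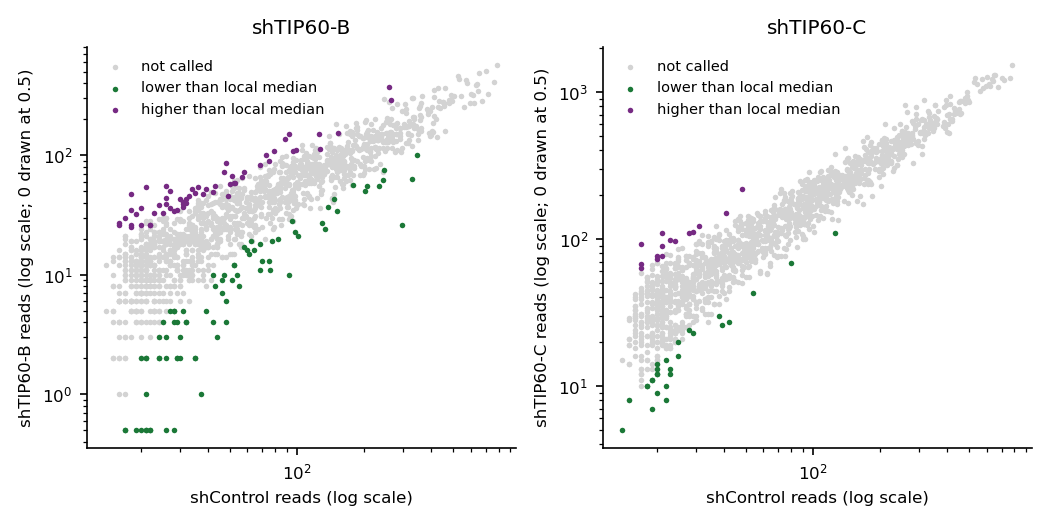
Reads in each chromosome 16 control peak in the knockdown library (vertical axis, log scale, 0 drawn at 0.5) against shControl (horizontal axis, log scale) for shTIP60-B (left) and shTIP60-C (right). Green and purple points are the regions called lower (80 and 27) and higher (59 and 15) than their local median, and grey points are the rest.

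Of the 80 called lower with shTIP60-B, 17 were promoters and 63 distal. That was 2.97% of promoters and 6.84% of distal regions, near the 2.57% and 6.64% on all chromosomes. Of the 80, 66 were absent from the knockdown peak list, none was annotated as a CpG island, and 27 rested on 0 to 3 knockdown reads (10 on 0 and 17 on 1 to 3). Of the 59 called higher, 21 were promoters, 58 were common peaks and 6 were CpG islands. CpG islands thus made up 10.2% of regions called higher, near their 8.79% share of the 1354 regions not called. Presence in the knockdown peak list depends on the same reads as the call, so nothing is read from it. The share of promoters called higher was 3.67% on chromosome 16 and 2.27% on all chromosomes. Near the threshold, the KIAA0895L promoter was called with a departure of -1.01, and a WWP2 region at -0.99 was not.

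The promoters of 4 genes show both directions and are printed here because their control peaks cover the whole printed window. They have the 2 lowest and the 2 highest departures among called genes with a deposited type of protein-coding and a single entry in the sequence table. Each gene was taken at its covering region nearest to the start site. CRNDE carries this type, although its region is annotated to a non-coding transcript. Larger departures fell outside this choice, among them those at IRX5, which had no entry, the non-coding LOC105371335 and a second HAS3 region. With shTIP60-B others were PKD1 (-2.63), BBS2 (-2.35), NUPR1 (2.26) and GPT2 (1.56), so the 4 printed are not the most extreme promoters of the chromosome. The 4 printed promoters were chosen after their values were seen. Each is the 300 bases from 250 before to 50 after the start site in RefSeq's GRCh38.p14 table, 5′ to 3′ on the gene's strand, with CCAAT and its reverse complement ATTGG in capitals.
SPIRE2, chr16:89828225-89828524, plus strand: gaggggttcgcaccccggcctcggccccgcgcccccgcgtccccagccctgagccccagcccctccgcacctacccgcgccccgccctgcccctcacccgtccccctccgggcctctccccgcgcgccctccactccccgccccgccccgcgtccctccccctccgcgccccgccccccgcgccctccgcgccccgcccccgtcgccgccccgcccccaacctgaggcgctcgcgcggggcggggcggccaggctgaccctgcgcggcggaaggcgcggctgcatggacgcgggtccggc
CRNDE, chr16:54928837-54929136, minus strand: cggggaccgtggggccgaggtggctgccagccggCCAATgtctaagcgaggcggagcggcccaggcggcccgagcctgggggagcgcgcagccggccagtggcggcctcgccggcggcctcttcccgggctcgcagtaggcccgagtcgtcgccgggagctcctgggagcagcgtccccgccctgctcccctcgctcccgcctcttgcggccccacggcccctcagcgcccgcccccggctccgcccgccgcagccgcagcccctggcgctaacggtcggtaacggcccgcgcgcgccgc
ZNF23, chr16:71462198-71462497, minus strand: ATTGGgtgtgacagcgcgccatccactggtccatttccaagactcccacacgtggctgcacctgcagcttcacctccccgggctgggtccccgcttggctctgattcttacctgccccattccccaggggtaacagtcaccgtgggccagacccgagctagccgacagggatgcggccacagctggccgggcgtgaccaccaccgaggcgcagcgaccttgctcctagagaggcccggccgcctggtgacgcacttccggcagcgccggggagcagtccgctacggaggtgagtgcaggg
PLLP, chr16:57284623-57284922, minus strand: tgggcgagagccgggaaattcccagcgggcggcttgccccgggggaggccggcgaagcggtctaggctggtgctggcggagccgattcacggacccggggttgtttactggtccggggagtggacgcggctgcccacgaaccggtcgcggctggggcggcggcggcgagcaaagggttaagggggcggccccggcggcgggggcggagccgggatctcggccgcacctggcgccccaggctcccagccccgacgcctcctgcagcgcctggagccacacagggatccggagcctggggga
Of 495 chromosome 16 genes with a promoter region, 346 had an entry in that table, and 167 had a single entry whose window the region covered by its distance to the start site. CCAAT on either strand was in 54 of these 167 (32.3%) and in 34.6% of all 35116 windows in the table. It was in 2 of the 5 windows called lower and 2 of the 6 called higher with shTIP60-B. The median GC content was 68.7% in the lower and 72.3% in the higher windows, against 69.0% over the 167.

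SPIRE2, an actin-nucleating factor gene, had 101 reads in shControl, 21 in shTIP60-B and 112 in shTIP60-C at its promoter (89893902 to 89895041). The local medians would give 65.5 and 182 reads, so its departures were -1.62 (-2.39 to -0.95) and -0.70 (not called). The CRNDE promoter (54961984 to 54963143), which belongs to a transcript that runs away from IRX5, had 134, 24 and 226 reads and departures of -1.49 and 0.02. With a local median within 1 Mb its shTIP60-B departure was -0.51 and was not called. ZNF23, a zinc finger gene, had 88, 137 and 197 reads at 71495462 to 71496803, against 52.8 and 155 at the local medians, with departures of 1.37 (0.98 to 1.78) and 0.34. PLLP, which encodes the membrane protein plasmolipin, had 51, 67 and 127 reads at 57318035 to 57319130 and departures of 1.29 and 0.43. Of the 4, none was called with shTIP60-C.

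NUPR1, a small chromatin protein gene switched on by cell stress, held the largest departure of any promoter called higher. Its region in the 5′ UTR, exon 1 (28549999 to 28550653), had 21 reads in shControl, 54 in shTIP60-B and 110 in shTIP60-C. At the local medians 11.1 and 35.5 would be found, which gives departures of 2.26 (1.53 to 3.08) and 1.61 (0.95 to 2.38). GPT2, a mitochondrial alanine transaminase gene, had 48, 86 and 217 reads at its promoter (46917250 to 46918059), with departures of 1.56 (1.04 to 2.11) and 1.42 (0.97 to 1.91). An intronic region of MVP, the major vault protein gene (29836897 to 29837444), had 17, 30 and 93 reads and departures of 1.68 and 1.65. These 3 regions met the rule in both comparisons and also with local medians taken within 1 Mb or 5 Mb. Their shControl counts were small (17 to 48) and enter both comparisons, and the part of this in the result was not tested.

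A pair of intergenic regions also met the rule with each hairpin. One, nearest to PRM1 (11405998 to 11406542), had 23, 33 and 98 reads and departures of 1.41 and 1.26. The other, nearest to LDHD (75156356 to 75156853), had 28, 34 and 110 reads and departures of 1.00 and 1.15. The LDHD region sat at the threshold with shTIP60-B and was not called there with a local median within 1 Mb (0.87) or 5 Mb (0.99).

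PKD1, the polycystin-1 gene, had a promoter-side region (2185177 to 2185910) with 29 reads in shControl, 2 in shTIP60-B and 23 in shTIP60-C. Its departures were -2.63 (-6.04 to -0.95) and -1.19 (-2.05 to -0.36), called lower with each hairpin. PKD1 has near-identical pseudogene copies on the short arm, so its counts are uncertain. MVD, an enzyme gene of the mevalonate pathway, had 46, 7 and 98 reads at its promoter (88729025 to 88729684), with departures of -2.02 (-3.50 to -0.95) and 0.23. BBS2, a ciliary gene, had 24, 2 and 58 reads (departures -2.35 and 0.37), and TBC1D10B, a Rab GTPase-activating protein gene, had 21, 2 and 29 (-2.23 and -0.34).

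Some promoters with more reads were called lower with shTIP60-B at smaller departures. With few reads the counting interval lets only larger departures be called, so nothing is read from this contrast in size. NDE1, a centrosome protein gene, had 151, 34 and 245 reads (departures -1.23 and 0.07). EDC4, a scaffold of messenger RNA decapping, had 138, 37 and 181 (-1.17 and -0.46). FBRS had 244, 62 and 402 (-1.10 and -0.09). RBBP6, a ubiquitin ligase gene, had 344, 100 and 612 (-1.07 and 0.05), and with a local median within 5 Mb its shTIP60-B departure was -0.89 and not called. At the local medians of shTIP60-C, NDE1, FBRS and RBBP6 would have 232, 426 and 590 reads, close to what was counted. EDC4 would have 249, more than the 181 counted, and the interval of its shTIP60-C departure (-0.79 to -0.13) left out 0.

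Other promoters called higher with shTIP60-B were HAS3, a hyaluronan synthase gene with 18, 35 and 54 reads (departures 1.62 and 0.70), USB1 with 19, 32 and 45 (1.57 and 0.32) and ST3GAL2, a sialyltransferase gene with 20, 36 and 69 (1.54 and 0.93). At higher read numbers stood CCDC102A with 126, 151 and 380 (1.10 and 0.70), EMP2, an epithelial membrane protein gene, with 96, 108 and 244 (1.07 and 0.54), and the non-coding gene LOC102724467 with 258, 371 and 809 (1.15 and 0.81). None of these 6 was called with shTIP60-C, where their departures were all above 0. The same shControl counts enter both departures, and the part of this in the shared sign was not tested. That the calls differ between hairpins was not tested.

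Promoters called with shTIP60-C were 3 lower and 4 higher, 0.524% and 0.699% of promoters beside 0.703% and 0.753% on all chromosomes. PPL, the periplakin gene, had 20 reads in shControl, 8 in shTIP60-B and 12 in shTIP60-C, with departures of -1.56 with shTIP60-C and -0.33 with shTIP60-B. MRPL28, a mitochondrial ribosomal protein gene, had 28, 5 and 24 reads and departures of -1.11 with shTIP60-C and -1.45 with shTIP60-B, the second not called. ZNF48 had 17, 15 and 63 reads (1.07 with shTIP60-C), and the upstream METRN region 29, 29 and 112 (1.05). The shTIP60-B departure of this METRN region was 0.94 (0.14 to 1.73) and was not called. The downstream METRN region, in exon 2, had 51, 9 and 115 reads and was called lower with shTIP60-B (-1.51). Its shTIP60-C departure was 0.29 and was not called.

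The region with the most control reads among those called lower by more than 2 on the log2 scale was intergenic, upstream of LINC00917 toward FENDRR and FOXF1, a forkhead factor gene of lung mesenchyme. It spans 86416235 to 86419232 and had 296 reads in shControl, 26 in shTIP60-B and 461 in shTIP60-C. The local medians would give 193 and 527 reads, so its departures were -2.87 (-3.53 to -2.31) and -0.20 (-0.41 to 0.02). Its neighbour (86419757 to 86422515) had 245, 75 and 445 reads and departures of -1.08 and 0.03. Another (86457920 to 86459845) had 179, 56 and 326 reads and departures of -1.06 and 0.03. Also called lower with shTIP60-B was a LINC02135 region (86341067 to 86342073) with 60, 16 and 75 reads and departures of -1.25 and -0.51.

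Over the 10 neighbouring control peaks from LINC02135 to FOXL1, a run chosen after its values were seen, the reads were 1147, 409 and 2058. The relative ratios were -1.15 with shTIP60-B and -0.05 with shTIP60-C. The regions nearest to FENDRR, FOXF1 and FOXL1 were not called with either hairpin, and FENDRR had 60, 27 and 97 reads at its promoter. The 4 called regions were thus all intergenic and lay on the LINC02135 and LINC00917 side of the run.

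A second low run held the Iroquois homeobox genes, which pattern the embryo. From IRX3 to IRX6, 12 regions had 641 reads in shControl, 167 in shTIP60-B and 1073 in shTIP60-C, relative ratios of -1.60 and -0.15, and 7 were called lower with shTIP60-B. IRX5 had 35, 2 and 45 reads at its promoter and a departure of -2.86 (-6.27 to -1.21) with shTIP60-B. In 2 Mb windows the stretch from 54 to 56 Mb stood at -1.30 with shTIP60-B, where the next lowest, from 0 to 2 Mb, stood at -0.58. The local median of these regions is taken partly over the run itself. With a local median within 1 Mb, 5 of the 7 lower calls were lost. The 2 IRX5 regions then stood at -1.89 and -0.35, the 2 CRNDE regions at -0.51 and -0.43, and the IRX6 region at -0.77. Within 5 Mb all 7 kept the call.

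The run also enters the local median of the genes beside it. CHD9, a chromatin remodeller gene, had 152, 153 and 339 reads at its promoter (53087971 to 53089578). Its departure of 1.30 with shTIP60-B was called, but its relative ratio was 0.35, and with a local median within 1 Mb or 5 Mb the departure was 0.67 or 0.88 and not called. Of the 4 regions called higher from CHD9 to FTO, 1 kept the call within 1 Mb and 1 within 5 Mb. From CHD9 to FTO the 22 regions had a relative ratio of -0.21 with shTIP60-B and -0.16 with shTIP60-C.

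Smaller runs were seen among regions nearest to CRISPLD2, which encodes a secreted protein, and among those nearest to IQCK. An intronic region of CRISPLD2 (84868986 to 84870912) had 92, 10 and 100 reads and departures of -2.47 and -0.72. Over its 10 regions 3 were called lower with shTIP60-B and 2 others with shTIP60-C. Of the 5 regions nearest to IQCK, all upstream of its start site, 3 were called lower with shTIP60-B. Of these 3, the region at 19708070 to 19708603 had 20 reads in shControl, 0 in shTIP60-B and 26 in shTIP60-C. A VAC14 region, intronic and far from the start site (71042724 to 71045136), had 326, 63 and 527 reads and departures of -1.62 and -0.12.

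Regions with 0 reads in shTIP60-B are given as bounds against a floor of 3 counts per library. Each bound is the reads expected at the local median divided by 3, and is not a counting interval. The 95% counting intervals allow smaller folds. Their upper ends were departures of -2.14 at the LOC102723692 region and -1.05 at the LINC02140 region. An intronic region nearest to LOC102723692 (17366601 to 17367120) had 28 reads in shControl and 41 in shTIP60-C, and was at least 5.79-fold lower than its local median with shTIP60-B. An intergenic region nearest to LINC01571 (51655981 to 51656675) had 26 and 40 reads and was at least 5.20-fold lower. Regions nearest to IQCK, CTF1, HMOX2, ATP2C2, TPSG1 and LINC02140 were at least 4.19, 3.84, 3.76, 3.55, 3.30 and 2.85-fold lower. A neighbouring HMOX2 region (4548432 to 4549287) went the other way and was called higher with shTIP60-B, at a departure of 1.23. Distal regions called higher were led by one nearest to ATF7IP2 (10588130 to 10588626) with 18, 47 and 42 reads, departures 2.26 and 0.40, and one near OSGIN1, an oxidative stress gene, with 26, 55 and 86 reads, departures 1.82 and 0.88. A region far downstream of SOCS1 (11294747 to 11296396) had 92, 151 and 167 reads and departures of 1.62 and 0.05.

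With shTIP60-C the lowest regions rested on few reads too. One nearest to LOC100129617 (81745492 to 81746073) had 22 reads in shControl, 12 in shTIP60-B and 8 in shTIP60-C, with departures of -2.20 with shTIP60-C and -0.14 with shTIP60-B. An intronic region of RABEP2, a Rab effector gene (28921379 to 28921919), had 19, 5 and 7 reads and departures of -2.15 and -0.94.

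Genes of 10 functional lists, 116 entries in all, were read at their promoter regions. Over all 572 chromosome 16 promoters the median departure was 0.06 with each hairpin, the median relative ratio was -0.39 with shTIP60-B and -0.002 with shTIP60-C, and 17 were called lower and 21 higher with shTIP60-B. No list had more than 2 members called with either hairpin.

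Acetyltransferase and chromatin genes had a promoter region for 11 of 16 members, and CHD9 alone was called. CREBBP, an acetyltransferase gene, had 205, 154 and 468 reads in shControl, shTIP60-B and shTIP60-C (departures 0.53 and 0.34). KAT8, which encodes an H4 acetyltransferase, had 144, 79 and 214 (0.003 and -0.23). CTCF, the insulator protein gene, had 428, 252 and 774 (-0.03 and 0.01). The list's median relative ratio was -0.41 with shTIP60-B and its median departure 0.07, close to the chromosome's promoters.

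Replication, cell cycle and DNA repair genes had 10 of 12 members measured and none called. Their departures with shTIP60-B ran from -0.54 at FANCA (223, 99 and 386 reads), a Fanconi anaemia gene, to 0.72 at MPG (186, 162 and 395), a DNA glycosylase gene. Translation genes had 8 of 10 measured, with a median departure of 0.52 with shTIP60-B and 0.29 with shTIP60-C. The ribosomal protein genes RPS2, RPS15A and RPL13 stood at 0.51, 0.18 and 0.22 with shTIP60-B. EIF3CL was called higher with shTIP60-B (32, 43 and 107 reads, departure 1.32), while its near-identical copy EIF3C had 56, 21 and 94 reads and a departure of -0.50, so the split of reads between these copies is uncertain.

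Mitochondrial genes had 10 of 12 measured, with only MRPL28 called (lower with shTIP60-C), and shTIP60-B departures from -1.45 to 0.87. Of the tumour suppressor and signalling genes 6 of 10 were measured and none was called, from -0.92 at SOCS1 (72, 20 and 77 reads), a cytokine signalling inhibitor gene, to 0.71 at WWOX (89, 83 and 214). In the sterol, lipid and steroid enzyme list, MVD was the 1 call among 5 measured genes of 12. In the list of duplicated 16p families PKD1 was the 1 gene called among 4 measured of 15.

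Developmental factors had 2 of 9 members measured at a promoter, IRX3 and IRX5, and both were called lower with shTIP60-B. IRX3 had 68, 11 and 94 reads and departures of -1.58 and -0.25. Metallothioneins had 2 of 12 measured: MT1E had 92, 56 and 251 reads (0.28 and 0.56) and MT1X had 17, 3 and 44 (-1.38 and 0.46), and neither was called. Of the cadherins, CDH1, which encodes E-cadherin, had 25, 33 and 85 reads and was called higher with shTIP60-B (1.13, interval 0.35 to 1.95) and not with shTIP60-C (0.90). CDH3, P-cadherin, had 36, 29 and 65 reads (0.43 and -0.004).

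**Figure D5:**
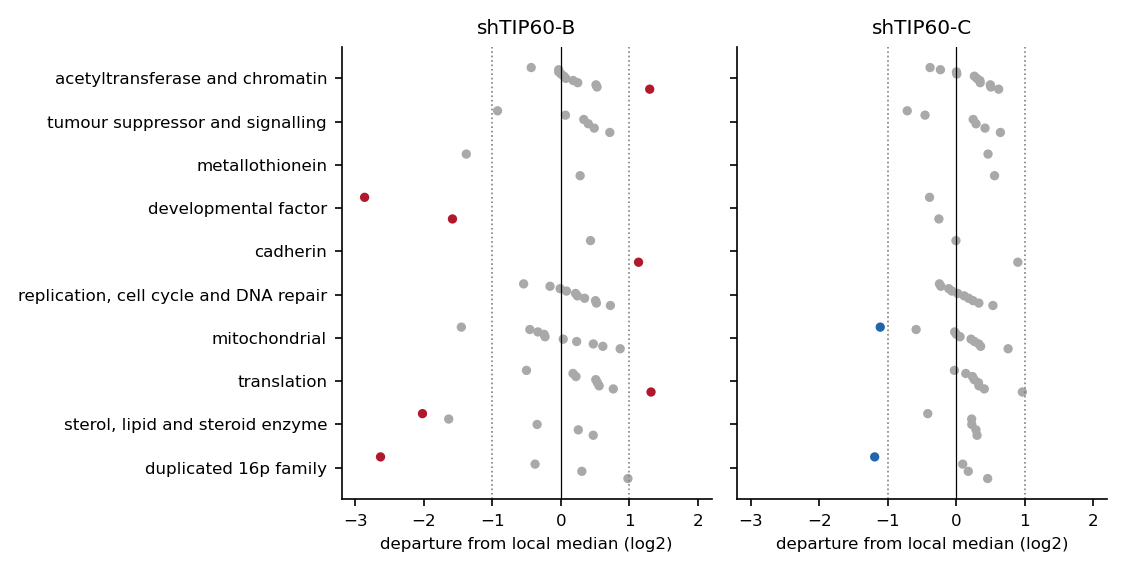
Departure from the local median (log2, horizontal axis) of each list member's promoter region, by list (rows), for shTIP60-B (left) and shTIP60-C (right). Each point is 1 region, coloured where called, and dotted lines mark a fold of 2; at most 2 members of a list were called.

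Promoters with the most control reads in their window have the least counting error, and they spread on either side of the chromosome's level. Over the 16 windows with such a promoter, relative ratios with shTIP60-B ran from -1.24 at PHKB to 0.22 at HERPUD1, with -0.90 at GSE1, -0.53 at DYNC1LI2, -0.13 at SLC7A5P2 and -0.09 at SF3B3 between them. SF3B3, a splicing factor gene, had 656 reads in shControl, 486 in shTIP60-B and 1296 in shTIP60-C, with departures of 0.29 and 0.16. DYNC1LI2, a dynein subunit gene, had 601, 327 and 1261 (-0.14 and 0.22), and GSE1 had 676, 285 and 1071 (-0.58 and -0.17). At the pseudogene SLC7A5P2, the strongest region of the chromosome, the reads were 784, 567 and 1517 (0.14 and 0.13), counts that are uncertain because the sequence resembles SLC7A5. PHKB, a phosphorylase kinase subunit gene, had 422, 141 and 653 (-0.85 and -0.16), and HERPUD1, a gene of the endoplasmic reticulum stress response, had 329, 302 and 744 (0.79 and 0.29). None of these 6 promoters was called with either hairpin.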

How the data were processed

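H4ac ChIP-seq of H1975 cells was compared between shTIP60-B or shTIP60-C and shControl, with samples grouped by the labels' titles. Per the submitters' processing notes, reads were handled with Bowtie2, MACS 1.4.2 and the hg19 build. MAnorm appears in the names of the deposited tables and HOMER in their header. The version of each is not given in the sources used here. Deposited read counts per region are whole numbers, not normalised. The deposited log2 ratio M, rescaled by the authors, was used in 1 alternative only. All per-sample columns were used. Control-list peaks on chromosome 16 were taken by their deposited annotation, and nearest genes and distances come from it too.

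Ratios, local medians and exact Clopper-Pearson intervals were computed with Python 3.11.15, numpy 2.4.6, pandas 2.3.3 and scipy 1.17.1. Reads are not independent molecules, so intervals cover counting error only. The interval of a promoter minus distal difference is a large-sample one on the log scale. Relative ratios use no pseudocount, and departures use 0.5. Of the 1495 regions 2 had too few neighbours for a local median.

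The chromosome, its members and the gene lists were chosen with earlier results of these data known. Named genes are up to 8 called regions per hairpin and direction, those called with both, the strongest promoter per window, called or extreme list members, and IRX5, PKD1, MVD and NUPR1; other called promoters and the runs of neighbouring regions were named after their values were seen. A gene is represented by its nearest control peak within 1000 bases. Small and antisense RNA genes were passed over, and 1 gene picked by this rule is not reported here. Other windows, thresholds, pseudocounts, promoter widths and filters were tried as alternatives.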

Additional observations from a re-analysis of the deposited data

How the results depend on the processing

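No paired analysis was possible because each group has 1 library. Of 53 alternative values 31 stayed near the main value, for ratios within its counting interval, and 22 moved. None of the ratios among them reversed a direction. Counts of called regions, also among the 53, have no direction to reverse. For the chromosome and its windows, medians are here set against the median of region ratios on other chromosomes. The chromosome 16 relative ratio with shTIP60-B was -0.36 with medians of region ratios, -0.36 with common control peaks only and -0.37 with regions over 2000 control reads left out of the scale (this one chosen after seeing the data). With shTIP60-C those values were -0.0023, -0.0055 and -0.0019, and -0.0046 with medians of the authors' deposited M. The shTIP60-B to shTIP60-C ratio was -0.35 with medians. The lowest window moved to -1.30 (shTIP60-B) and -0.25 (shTIP60-C) in 2 Mb windows. The highest shTIP60-B window was -0.16 in 2 Mb windows, where all 31 windows lay below 0. With medians in 5 Mb windows it was -0.18, against -0.27 when the summed-read reference is kept. Promoter minus distal rose with medians, to 0.10 and 0.13, and off the chromosome to 0.04 and 0.09.

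Counts of called regions moved with the threshold and with the filter on peaks. At 3-fold, 47 were lower and 9 higher with shTIP60-B; with shTIP60-C they numbered 9 and 2. A 95% interval gave 52 lower with shTIP60-C. Common peaks only gave 21 lower and 32 higher with shTIP60-B and 4 lower with shTIP60-C. In each of these the share of all control peaks moved with it: at 3-fold with shTIP60-B it was 2.94% lower and 0.371% higher, against 3.15% and 0.603% on chromosome 16. Of 80 and 59 regions called with shTIP60-B, 66 and 49 kept the call with local medians within 1 Mb and within 5 Mb; 5 of the 80 could not be tested within 1 Mb. Depth limits regions under 20 control reads, and without replicates no count says how cultures differ.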
